A study of Mus musculus with 24 samples.

Results

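The subject is 7 genes of the mouse Cyp2c family of cytochrome P450 enzymes, namely Cyp2c29, Cyp2c37, Cyp2c39, Cyp2c54, Cyp2c55, Cyp2c68 and Cyp2c70, followed across liver and small intestine of wild-type mice and of mice without caspase-1. They are 7 of the 18820 genes that had a probe set of their own, each represented by 1 of the 35556 probe sets, and no probe set was filtered out for low values. The genes were chosen by measured values of these arrays, with their genotype differences already known: Cyp2c37, Cyp2c39, Cyp2c54 and Cyp2c55 stood out in liver and Cyp2c29 in duodenum, and which values brought in Cyp2c68 and Cyp2c70 is not known. Their differences between genotypes are therefore given as a description without a test, and only their differences between tissues, taken over both genotypes together, were tested.

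The 24 arrays formed 8 groups of 3, made by 4 tissues and 2 genotypes. All mice were male, of strain C57BL/6, 14 to 16 weeks old and kept on chow. The caspase-1 null line, written Casp1-null below, had been crossed back to C57Bl/6 for 10 generations, and its controls were C57Bl/6J mice matched for age, so an effect of the missing gene and an effect of the remaining background or of separate breeding cannot be told apart. Livers came from mice fasted for 16 h. The duodenum, jejunum and ileum came from fasted mice that had been given 200 µL of olive oil by stomach tube 2 h earlier, and only the scraped epithelium was used. Liver and intestine therefore also differ in feeding state. Each genotype is stated to have had 3 animals and each intestine was divided into its segments, so the 9 intestinal arrays of a genotype may share 3 mice; which arrays share one is not stated, the fits treat arrays as independent, and p-values measure the spread between these samples.

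Cyp2c enzymes are haem proteins of the endoplasmic reticulum that receive electrons from P450 reductase and put oxygen into drugs, steroids and fatty acids. In the liver they are a large share of the P450 protein and several are switched on by the receptors CAR and PXR, which sense foreign compounds and bile acids. Several mouse Cyp2c enzymes convert arachidonic acid into epoxides and hydroxy acids, which act as local signals on vessels and epithelia. The genes lie together on chromosome 19 and arose by repeated duplication, so neighbours are close in sequence. In the order along that chromosome (RefSeq, GRCm38.p6) the measured genes were Cyp2c55, Cyp2c65, Cyp2c66, Cyp2c29, Cyp2c39, Cyp2c38, Cyp2c67, Cyp2c68, Cyp2c37, Cyp2c54, Cyp2c50, Cyp2c70 and Cyp2c23.

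The 200 bases before the annotated start show how alike, and how unlike, the neighbouring genes are at the point where transcription begins. RefSeq promoter entries (GRCm38.p6) were matched for 6 of the 7 genes, all but Cyp2c54, and Cyp2c39 had 2 annotated starts. Each is printed 5′ to 3′ on the strand of its gene, and capitals mark CAAAGTC, the core of the sequence that hepatocyte nuclear factor 4 is known to recognise. The intervals are chr19:39006819-39007018 (plus strand) for Cyp2c55, chr19:39286885-39287084 (plus) for Cyp2c29, chr19:39347146-39347345 (plus) and chr19:39510622-39510821 (plus) for the starts of Cyp2c39, chr19:39741102-39741301 (minus) for Cyp2c68, chr19:39992224-39992423 (plus) for Cyp2c37 and chr19:40187287-40187486 (minus) for Cyp2c70.
Cyp2c55: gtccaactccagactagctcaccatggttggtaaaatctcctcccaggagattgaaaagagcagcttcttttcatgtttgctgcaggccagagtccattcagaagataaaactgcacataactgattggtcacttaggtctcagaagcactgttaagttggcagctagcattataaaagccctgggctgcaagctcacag
Cyp2c29: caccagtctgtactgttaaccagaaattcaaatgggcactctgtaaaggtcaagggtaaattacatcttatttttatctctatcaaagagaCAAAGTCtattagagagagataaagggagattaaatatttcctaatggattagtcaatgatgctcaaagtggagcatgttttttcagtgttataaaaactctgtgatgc
Cyp2c39 start 1: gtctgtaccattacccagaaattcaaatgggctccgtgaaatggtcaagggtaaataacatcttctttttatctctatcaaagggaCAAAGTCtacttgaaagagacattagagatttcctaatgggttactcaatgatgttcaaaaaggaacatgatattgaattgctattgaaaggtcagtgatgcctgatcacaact
Cyp2c39 start 2: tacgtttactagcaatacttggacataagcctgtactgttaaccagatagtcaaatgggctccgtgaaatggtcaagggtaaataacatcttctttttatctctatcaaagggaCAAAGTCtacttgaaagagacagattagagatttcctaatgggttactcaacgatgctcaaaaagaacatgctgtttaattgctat
Cyp2c68: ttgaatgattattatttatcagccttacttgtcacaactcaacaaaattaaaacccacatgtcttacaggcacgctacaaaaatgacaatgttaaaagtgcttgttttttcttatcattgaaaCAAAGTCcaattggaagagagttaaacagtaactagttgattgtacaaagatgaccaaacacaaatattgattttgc
Cyp2c37: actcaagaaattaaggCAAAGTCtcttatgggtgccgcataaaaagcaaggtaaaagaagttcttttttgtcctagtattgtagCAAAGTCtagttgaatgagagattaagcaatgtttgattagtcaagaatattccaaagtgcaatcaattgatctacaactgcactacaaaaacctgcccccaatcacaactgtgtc
Cyp2c70: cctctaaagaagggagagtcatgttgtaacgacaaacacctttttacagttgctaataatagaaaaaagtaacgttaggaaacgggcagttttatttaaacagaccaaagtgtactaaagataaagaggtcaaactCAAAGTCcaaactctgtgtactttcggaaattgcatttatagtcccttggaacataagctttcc

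The letters CAAAGTC, searched on both strands from 250 bases before to 50 after each start, were present in 5 of the 6 genes with an entry, and absent from this window of Cyp2c55. Of the 13 Cyp2c genes with a promoter entry, which include Cyp2c40 and Cyp2c69 and lack Cyp2c54 and Cyp2c23, they were present in 10, against 4.44% of all 32851 promoter windows of the same length. Among the printed genes the first base lay at -109 in Cyp2c29, at -77 in Cyp2c68 and at -64 in Cyp2c70. It lay at -184 and -116 in Cyp2c37, and at -114 and -86 for the starts of Cyp2c39. The letters were not confined to liver-expressed genes. The intestinal genes Cyp2c65 and Cyp2c66 held them at -116 and -104, while the liver-expressed Cyp2c38 and Cyp2c50 lacked them. The half-site AGGTCA, bound by many nuclear receptors, was present in 3 of the 6 genes (Cyp2c29, Cyp2c39 at its first start only, and Cyp2c70). Over the family these were the only ones, 3 of 13 genes and 3 of 14 windows, against 16.3% of all windows. In Cyp2c70 it lay at -74, close before the CAAAGTC. These motifs were chosen after the promoters had been looked at, and a match is a run of letters, not a shown binding site. Between whole windows, Cyp2c29 and the first start of Cyp2c39 were 75.7% identical, the closest match between different printed genes. Cyp2c55 was 51.8% to 57% identical to the windows of the other 5 genes printed. Cyp2c70 was no closer to the others, at 48% to 53%.

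Levels are log2 values from robust multi-array averaging, a scale on which 1 unit is a 2-fold step; they were compared only within a gene, never between probe sets. A group mean below the lowest array median of its tissue (4.87 in intestine, 5.19 in liver) was taken as not shown to be above background (a limit set once the values were known), and a fold against such a group is written "at least". Casp1 itself fell in the Casp1-null duodenum, jejunum and ileum (log2 differences -2.07, -3.07 and -2.22; limma adjusted p = 0.000166, 3.06e-06 and 9.28e-05), whereas in liver it was under the array median in both genotypes and gives no check of those labels. Hepatocyte markers (7 of 8 measured) averaged 12.91 to 13.17 on the liver arrays and 5.32 to 6.84 on the intestinal ones, and enterocyte markers (9 of 9) averaged 11.49 to 12.93 on the intestinal arrays, so the arrays carried the markers of their labelled tissue. On 3 arrays other tissue was present: exocrine pancreas markers averaged 9.63 on wild-type duodenum array 1 against 3.87 to 4.32 on the other duodenum arrays, and smooth muscle and stroma markers averaged 9.32 on wild-type ileum array 2 and 8.87 on Casp1-null ileum array 3 against 4.46 to 4.75 on the other ileum arrays. For some of the results that rest on these arrays, values without them are given too. In whole scraped tissue, fewer cells of a type and less RNA per cell cannot be told apart.

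The 7 genes fell into different patterns along liver and gut. Cyp2c37, Cyp2c54, Cyp2c39 and Cyp2c70 were liver genes, Cyp2c29 was shared by liver and wild-type duodenum, Cyp2c68 was present everywhere and highest in liver, and Cyp2c55 was an intestinal gene. All 7 differed between liver and intestine in the limma fit over 24 arrays, 6 higher in liver and 1 higher in intestine. Cyp2c37, Cyp2c39, Cyp2c54 and Cyp2c55 were chosen for genotype differences in liver, and the same liver arrays carry this contrast. Cyp2c29 was chosen in duodenum, and the same duodenum arrays are part of the intestinal mean. The calls of all these genes between liver and intestine, and the adjusted p-values given below for them, are therefore not read as a test. For Cyp2c68 and Cyp2c70 the same limit may apply, as the values that chose them are not known. The background is wide here, since 41.8% of all probe sets were called higher and 31.2% lower in liver; the median difference was 6.82 (log2) over the 7 genes and 0.08 over all probe sets.

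Cyp2c37, which makes a hydroxyeicosatetraenoic acid from arachidonic acid, averaged 10.75 in liver and 3.93 in intestine, a log2 difference of 6.82 ± 0.106 (SE), or at least 113-fold (adjusted p = 1.35e-21). Cyp2c54, which makes epoxides and hydroxy acids from arachidonic acid, was at least 174-fold higher in liver (log2 difference 7.45 ± 0.0674, adjusted p = 1.83e-25). Cyp2c39, known for hydroxylating retinoic acid, was at least 62.1-fold higher over both genotypes (5.96 ± 0.0806, adjusted p = 1.23e-22). In single genotypes the log2 differences of Cyp2c39 were 3.91 in wild type and 8.00 in Casp1-null mice, and those of Cyp2c37 were 8.13 and 5.52, so the folds over both genotypes hold for neither alone. None of these 3 genes had an intestinal group mean above the array median in either genotype, so their differences between segments and genotypes in the gut carry no size. Cyp2c70, which converts bile acids into the muricholic acids of rodents, was at least 305-fold higher in liver (8.25 ± 0.134, adjusted p = 2.59e-21), with the same difference in either genotype alone (8.26 in wild type and 8.25 in Casp1-null mice).

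Cyp2c29, an epoxygenase of arachidonic acid and a classical CAR-induced gene, had a log2 difference of 7.49 ± 0.245 between liver and the mean of the intestinal groups (adjusted p = 3.83e-16), but that mean joins groups far apart. Its group means ran from 12.36 in wild-type and 11.98 in Casp1-null liver through 9.46 in wild-type duodenum to 4.65 or less in the other 5 groups, all of which were under the array median. Cyp2c68, a little-studied member, was 4.51-fold higher in liver than in intestine (log2 difference 2.17 ± 0.172, adjusted p = 6.7e-10), and its levels stepped down from liver to duodenum, jejunum and ileum in each genotype. Neighbouring groups in that order often overlapped: wild-type liver with Casp1-null liver, Casp1-null liver with wild-type duodenum, and wild-type duodenum with wild-type jejunum. Cyp2c55, which forms hydroxy acids from arachidonic acid and is known from the gut, was the 1 gene lower in liver, by at least 6.42-fold (log2 difference -2.68 ± 0.405, adjusted p = 6.62e-06).

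**Figure D1:**
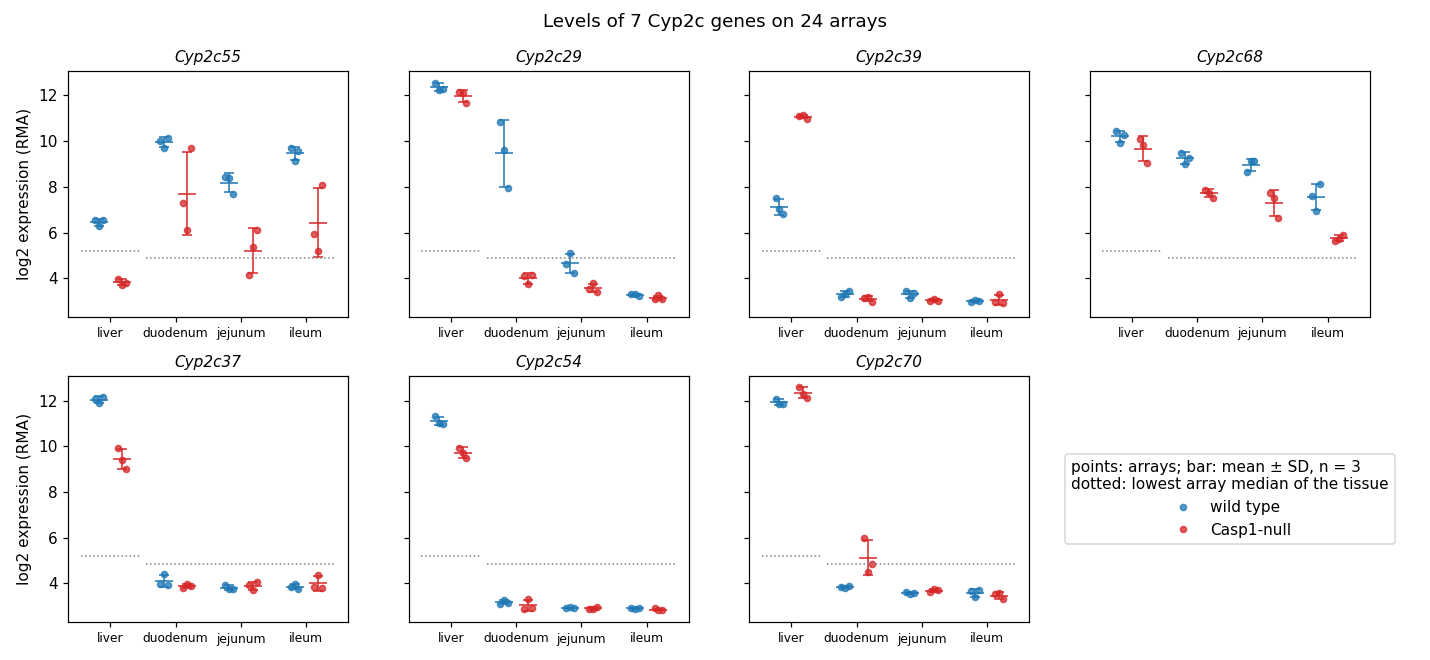
Log2 expression of the 7 genes on every array (points) with the mean ± SD of each group of 3 (bars), for wild-type (blue) and Casp1-null (red) mice in liver, duodenum, jejunum and ileum; the dotted lines are the lowest array medians, 5.19 in liver and 4.87 in intestine. Cyp2c37, Cyp2c39 and Cyp2c54 stay under the line in every intestinal group, the mean of Cyp2c29 lies above it in wild-type duodenum alone among the intestinal groups, and Cyp2c68 lies above it in all 8 groups.

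Along the intestine every called difference that involved the duodenum was higher there. The 7 genes shared no single order of segments, and several of these calls carry limits given below. Of the 7 genes, 3 passed as higher in duodenum than in jejunum (Cyp2c29, Cyp2c55 and Cyp2c70) and none as lower, against 5.69% of all probe sets called higher and 5.6% called lower; 4 had an unadjusted p under 0.05. Between duodenum and ileum 4 were higher in duodenum (15.9% of all probe sets) and none lower (15.8%), and between ileum and jejunum 1 was lower in ileum (9.22%) and none higher (11%). Cyp2c29 is counted in the first pair of contrasts, but it was chosen for its genotype difference in duodenum. The same wild-type duodenum arrays carry its segment differences, so its calls are not read as a test. Without it the counts are 2 and 3. These still hold Cyp2c70, whose calls rest on the Casp1-null duodenum arrays that also carry its genotype difference. Which values chose Cyp2c68 and Cyp2c70 is not known, so the same limit may apply to them. The median differences over the 7 genes were 0.35, 0.89 and -0.10 (log2), beside 0.01, 0.05 and -0.03 over all probe sets.

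Cyp2c68, like Cyp2c55, was above the array median in all segments of both genotypes. It was 2.79-fold lower in ileum than in jejunum (log2 difference -1.48 ± 0.201, adjusted p = 8.63e-05) and 3.56-fold higher in duodenum than in ileum (1.83 ± 0.201, adjusted p = 4.67e-06), while duodenum and jejunum did not differ by the test (0.35 ± 0.201, adjusted p = 0.335). Both genotypes gave like values on their own, with ileum below jejunum by a log2 difference of -1.41 in wild type and -1.55 in Casp1-null mice. Without the 3 arrays that held other tissue the ileal difference was -1.36 (adjusted p = 0.000508).

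Cyp2c55 had another order, with the lowest mean in jejunum. It was 4.41-fold higher in duodenum than in jejunum (log2 difference 2.14 ± 0.559, adjusted p = 0.0212), and its differences of 1.25 ± 0.559 between ileum and jejunum (adjusted p = 0.137) and 0.89 ± 0.559 between duodenum and ileum (adjusted p = 0.249) did not pass. The call for duodenum was lost without Casp1-null jejunum array 1 or wild-type jejunum array 3 (log2 differences 1.87 and 2.02; adjusted p = 0.0541 in either case), and in contrasts of a single genotype (1.78 in wild type, adjusted p = 0.243; 2.50 in Casp1-null, adjusted p = 0.105). Within wild-type mice the 3 segments did not overlap: every duodenum array lay above every ileum array and every ileum array above every jejunum array.

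For Cyp2c29 and Cyp2c70 the difference over both genotypes rested on 1 genotype each. Over both genotypes the log2 level of Cyp2c29 was higher by 2.61 in duodenum than in jejunum and by 3.51 than in ileum (2.27 and 3.17 without the 3 arrays with other tissue). In wild-type mice alone these log2 differences were 4.81 and 6.19, and in Casp1-null mice, where all segments were under the array median, they were 0.42 and 0.84. Cyp2c70 was called higher in duodenum than in jejunum (log2 difference 0.85 ± 0.176, adjusted p = 0.00508) and ileum (0.95 ± 0.176, adjusted p = 0.000679), but its means over both genotypes, 4.48, 3.63 and 3.53, were all under the array median and no fold is given. Here the Casp1-null arrays gave log2 differences of 1.43 and 1.64 and the wild-type arrays, all under the array median, 0.27 (adjusted p = 0.665) and 0.25 (adjusted p = 0.508). Cyp2c54 was also called between duodenum and ileum (0.21 ± 0.0684, adjusted p = 0.0264), but with every intestinal group mean under the array median that difference is not read as a level, and the call was lost without duodenum array 2 of either genotype, wild-type ileum array 2 or Casp1-null ileum array 3 (adjusted p = 0.0509 to 0.0679). The call was lost, too, without the 3 arrays with other tissue (limma adjusted p = 0.0945).

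**Figure D2:**
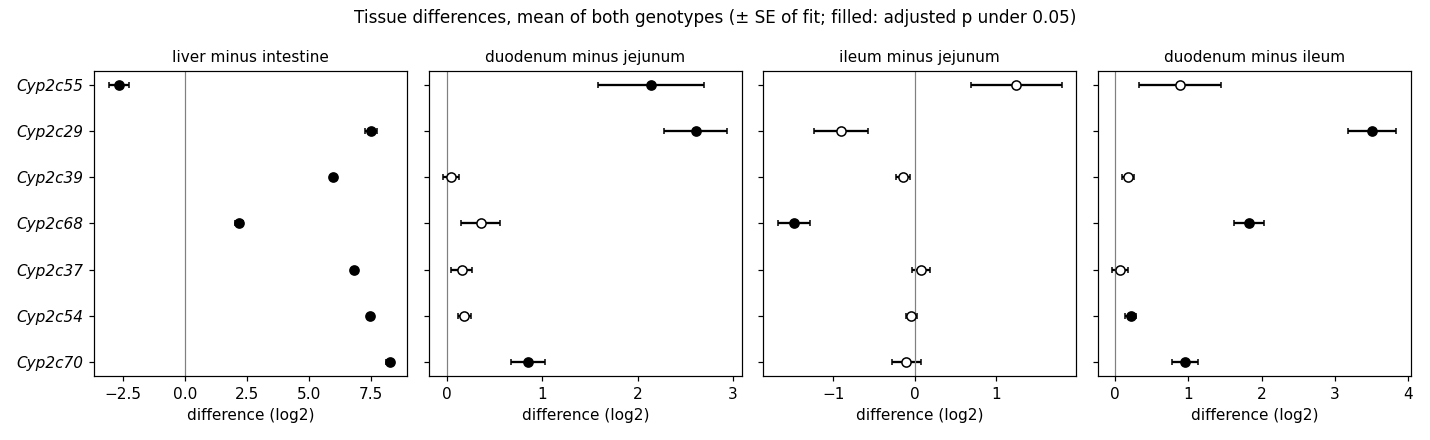
Log2 differences between tissues for the 7 genes, averaged over both genotypes, with the standard error of the limma fit. Filled points passed an adjusted p of 0.05 over all probe sets, and each panel has its own axis. They are not read as a test for any difference of Cyp2c29 or for the liver differences of Cyp2c37, Cyp2c39, Cyp2c54 and Cyp2c55. The segment calls of Cyp2c70 rest on the Casp1-null duodenum arrays that also carry its genotype difference. Cyp2c55 is the 1 gene left of 0 in the liver panel (-2.68), and Cyp2c29 has the largest segment difference (3.51 between duodenum and ileum).

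In liver the 7 genes did not move together between genotypes. Cyp2c39 was higher and Cyp2c37, Cyp2c54 and Cyp2c55 were lower in Casp1-null mice by 2.61-fold to 15.4-fold, while Cyp2c29, Cyp2c68 and Cyp2c70 differed by 1.30-fold to 1.46-fold. The groups did not overlap for 2 genes that were higher and 4 that were lower, beside 8.36% and 9.21% of all probe sets; as these differences chose most of the genes, nothing is read from the count.

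Of the enzymes of arachidonic acid, Cyp2c37 measured 12.06, 11.91 and 12.18 on the wild-type liver arrays and 9.91, 9.41 and 9.03 on the Casp1-null ones. The 2 sets lie far apart, with a log2 difference of -2.60 ± 0.219 (SE), 6.05-fold lower in Casp1-null liver. Cyp2c54, the next measured gene along the chromosome, measured 11.33, 11.04 and 10.97 in wild-type and 9.95, 9.73 and 9.50 in Casp1-null liver. It had the same direction at a smaller size, a log2 difference of -1.38 ± 0.153 or 2.61-fold. Cyp2c29 measured 12.55, 12.23 and 12.30 against 12.17, 12.11 and 11.66, lower on every Casp1-null array but by a log2 difference of only -0.38 ± 0.164. The large difference of this gene between genotypes lay in the duodenum, given further on.

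Cyp2c39, the retinoic acid hydroxylase, measured 7.49, 7.05 and 6.82 in wild-type liver and 11.08, 11.13 and 10.99 in Casp1-null liver. The Casp1-null arrays lay within 0.14 (log2) of each other and all far above the wild type, with a log2 difference of 3.95 ± 0.173 or 15.4-fold. By its first annotated start it lies between Cyp2c29 and Cyp2c38, and both of those genes were lower in Casp1-null liver (log2 differences -0.38 and -1.68). Its other annotated start lies beyond that of Cyp2c38, next to Cyp2c67, whose groups overlapped in liver (log2 difference 0.13). Leaving out each liver array in turn gave 3.80 to 4.13 for Cyp2c39.

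Cyp2c55 measured 6.56, 6.27 and 6.54 in wild-type liver and 3.98, 3.72 and 3.78 in Casp1-null liver, where it was under the array median, so that the log2 difference of -2.63 ± 0.122 is at least 6.19-fold. As an intestinal gene it was read beside intestinal markers on the same arrays. The enterocyte markers (9 of 9 measured) averaged 7.81 to 8.15 in wild-type liver and 7.60 to 7.73 in Casp1-null liver, the goblet cell markers (6 of 7 measured) 5.56 to 6.13 and 5.19 to 5.34, and the distal intestine markers (7 of 7) 5.26 to 5.52 and 4.37 to 4.60. Among their defining genes, Sis, the sucrase of the brush border, was 5.15 to 6.10 in wild-type and 3.93 to 4.38 in Casp1-null liver, and Muc2, the goblet mucin, was 5.40 to 6.24 and 4.54 to 4.71. Zg16, a goblet lectin, was 6.95 to 7.96 and 5.68 to 5.83, but Tff3, another goblet product, went the other way without overlap, at 6.40 to 6.87 in wild-type and 7.54 to 8.27 in Casp1-null liver. Clec2h of the distal intestine list, a lectin chosen here after its values were seen, was 8.48 to 9.52 and 4.80 to 5.68. The group means of 4 of the 9 enterocyte markers and 4 of the 6 goblet markers lay under the array median in Casp1-null liver, against 1 and 3 in wild-type liver. The intestinal genes Cyp2c65 and Cyp2c66, next to Cyp2c55 on the chromosome, were under the array median on every liver array; Cyp2c65 measured 1.93 to 2.54 with overlapping groups, and Cyp2c66 was lower without overlap in Casp1-null liver (group means 4.11 and 3.25). The part of intestinal RNA in the liver values of Cyp2c55 was not tested.

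Cyp2c70, the bile acid enzyme, measured 12.07, 11.87 and 11.84 in wild-type and 12.59, 12.31 and 12.12 in Casp1-null liver. The groups did not overlap, yet the gap between the closest arrays was small beside the log2 difference of 0.41 ± 0.143. Cyp2c68 measured 10.43, 9.93 and 10.25 against 10.11, 9.82 and 9.05, and here the groups overlapped (log2 difference -0.55 ± 0.279). Leaving out Casp1-null array 3, its lowest, or another single array moved that difference between -0.77 and -0.24.

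In the intestine the lower values of Casp1-null mice concerned Cyp2c55 and Cyp2c68 in all 3 segments and Cyp2c29 in the duodenum. The groups did not overlap for 3 genes that were lower and 1 that was higher in duodenum, beside 9.93% and 10.3% of all probe sets. In jejunum 4 genes were lower without overlap (8.96%) and none higher (8.35%), and in ileum 2 were lower (4.54%) and none higher (4.74%). Of the jejunal genes, Cyp2c29 and Cyp2c39 were under the array median in both genotypes. The median differences of the 7 genes were -0.55 in liver, -0.21 in duodenum, -0.26 in jejunum and -0.12 in ileum, beside medians over all probe sets of -0.03 to 0.00.

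Cyp2c29 measured 10.83, 9.62 and 7.93 in wild-type duodenum and 4.08, 3.73 and 4.16 in Casp1-null duodenum. The wild-type arrays spread over 2.90 log2 units, the Casp1-null arrays over 0.42, and all of the latter were under the array median, so the log2 difference of -5.47 ± 0.469 is at least 44.4-fold. The highest wild-type value was on array 1, the one with pancreas markers; without that array the difference was -4.79, and without array 3, the lowest, it was -6.24. The part of pancreatic tissue in the value of array 1 was not tested. Beside this result, smooth muscle and stroma markers (10 of 10 measured) averaged 4.54 to 4.68 in wild-type and 5.11 to 5.43 in Casp1-null duodenum, and B and plasma cell markers (6 of 7) averaged 5.42 to 5.63 and 6.29 to 6.87. Myeloid markers (6 of 6) averaged 5.11 to 5.34 and 5.54 to 6.32, and endothelial markers (6 of 6) 4.07 to 4.14 and 4.34 to 4.89, so that all 4 lists were higher without overlap in Casp1-null duodenum. Enterocyte markers averaged 12.75 to 12.83 and 12.64 to 12.83. The part of these other cells in the result was not tested.

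Cyp2c55, the gut member, measured 10.01, 9.72 and 10.14 in wild-type duodenum and 7.29, 6.13 and 9.69 in Casp1-null duodenum (log2 difference -2.25 ± 0.790). In jejunum it measured 8.43, 8.40 and 7.69 against 4.14, 5.36 and 6.12 (-2.97 ± 0.790, or 7.81-fold). In ileum it measured 9.70, 9.14 and 9.57 against 5.95, 5.20 and 8.10 (-3.05 ± 0.790, or 8.30-fold). No Casp1-null array reached the lowest wild-type array of its segment, but the Casp1-null arrays spread widely, with SDs of 1.82, 0.998 and 1.51 against 0.211, 0.417 and 0.291 in wild type. Array 3 was the highest of the Casp1-null arrays in each of the 3 segments; without it the difference was -3.24 in duodenum, -3.42 in jejunum and -3.90 in ileum. Without the 3 arrays with other tissue the ileal difference was -4.06. Leaving out the lowest Casp1-null array of a segment gave the smallest differences, -1.46 in duodenum without array 2, -2.43 in jejunum without array 1 and -2.44 in ileum without array 2. Cyp2c66 was the 1 other gene of the 13 for which array 3 was highest in all 3 segments, and on the jejunum and ileum arrays numbered 3 the stroma markers were also the highest of their group (5.87 and 8.87), which was not so in duodenum (5.32 against 5.43 on array 1). The part of stroma in these values was not tested.

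Cyp2c68 had narrower groups and the same direction. In duodenum it measured 9.50, 9.00 and 9.27 in wild-type and 7.87, 7.75 and 7.53 in Casp1-null mice (log2 difference -1.54 ± 0.284, or 2.90-fold). In jejunum it measured 8.66, 9.13 and 9.12 against 7.74, 7.51 and 6.65 (-1.67 ± 0.284, or 3.18-fold). In ileum it measured 7.62, 6.95 and 8.11 against 5.63, 5.72 and 5.90 (-1.81 ± 0.284, or 3.51-fold). Every Casp1-null array lay below every wild-type array of its segment, whereas in liver the groups overlapped. With all arrays the differences were of like size in all 3 segments. Without the 3 arrays with other tissue they were -1.41 in duodenum, -1.67 in jejunum and -2.19 in ileum.

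Cyp2c70 was the 1 gene of the 7 that was higher in Casp1-null intestine without overlap, and in the duodenum alone. It measured 3.83, 3.80 and 3.90 in wild-type duodenum, all under the array median, and 5.98, 4.52 and 4.85 in Casp1-null duodenum. The group mean of 5.12 is just above the array median of 4.87, and 2 of the 3 Casp1-null arrays were under it. The log2 difference was 1.28 ± 0.249, at least 2.42-fold, and 0.84 without Casp1-null array 1.

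A probe set of the array is assigned jointly to Cyp2c40, Cyp2c67, Cyp2c68 and Cyp2c69, so it cannot tell these paralogues apart. The promoter windows of Cyp2c68 and Cyp2c69 are 91.1% identical, but they lie mostly before the transcript, and transcript sequences were not compared. The shared probe set was lower without overlap in Casp1-null duodenum, jejunum and ileum (log2 differences -0.95, -1.12 and -1.22) and not in liver (0.03), as was the probe set of Cyp2c67 in duodenum (-1.0, against 0.13 in liver); in jejunum its Casp1-null mean, and in ileum both its means, were under the array median. Whether this reflects several genes or signal from one transcript on all of them was not tested. The probe sets of another close pair gave different values: between Casp1-null and wild-type liver Cyp2c39 was 3.95 higher (log2) while its neighbour Cyp2c38 was 1.68 lower, so these probe sets did not move alike. Cyp2c37 and Cyp2c50, whose promoter windows are 86.6% identical, had the same direction, with log2 differences of -2.60 and -0.95 in liver. Cross-hybridisation was not tested, as probe sequences were not used here.

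The other 6 measured genes of the family were tested for genotype; they are what remained after the 7 were picked, so a low count among them follows in part from that choice. In liver 1 of 6 fell, Cyp2c38, another arachidonic acid epoxygenase, from 9.17 to 7.50 (log2 difference -1.68 ± 0.191, limma adjusted p = 0.0185), against 0.726% of all probe sets called in either direction. Leaving out the third wild-type liver array, or the second or the third Casp1-null one, lost the call (adjusted p = 0.0986, 0.0865 and 0.0758). Cyp2c50, the neighbour of Cyp2c54, had a log2 difference of -0.95 ± 0.169 that missed the threshold (adjusted p = 0.0788). In jejunum 1 of 6 fell, Cyp2c67 (-1.18 ± 0.266, adjusted p = 0.038, against 1.63% called), a call that was lost when any of 12 of the 18 intestinal arrays was left out, with adjusted p-values up to 0.152. In duodenum and ileum limma called none of the 6 (1.03% and 0.726% of all probe sets were called in either direction), with unadjusted p under 0.05 for 2 and 3 of them. Without the 3 arrays with other tissue 2 were called in ileum, Cyp2c65 and Cyp2c67, and 2 in jejunum, Cyp2c66 and Cyp2c67.

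Cyp2c65 and Cyp2c66, the other intestinal genes of the family, are the nearest comparison for Cyp2c55. Cyp2c66 had a log2 difference between genotypes of -1.16 ± 0.301 in jejunum (adjusted p = 0.0748), -0.66 in duodenum and 0.42 in ileum. It passed in jejunum without Casp1-null ileum array 3 (adjusted p = 0.0226) and without the 3 arrays with other tissue (adjusted p = 0.0318), and without those 3 the ileal value turned to -0.09. Cyp2c65 had -0.32, -0.51 and -0.66 in duodenum, jejunum and ileum, none of which passed with all arrays. Without the 3 arrays with other tissue Cyp2c65 fell in ileum (-1.17, adjusted p = 0.00278), as it did without Casp1-null ileum array 3 alone (-0.96, adjusted p = 0.035). Both were higher in duodenum than in jejunum and ileum, Cyp2c66 by 5.31-fold and 20.9-fold (adjusted p = 2.42e-06 and 8.99e-10). Cyp2c23, which is expressed in both organs, had -0.47 in liver (adjusted p = 0.216) and 0.60, 0.42 and 0.67 along the intestine, none called.

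**Figure D3:**
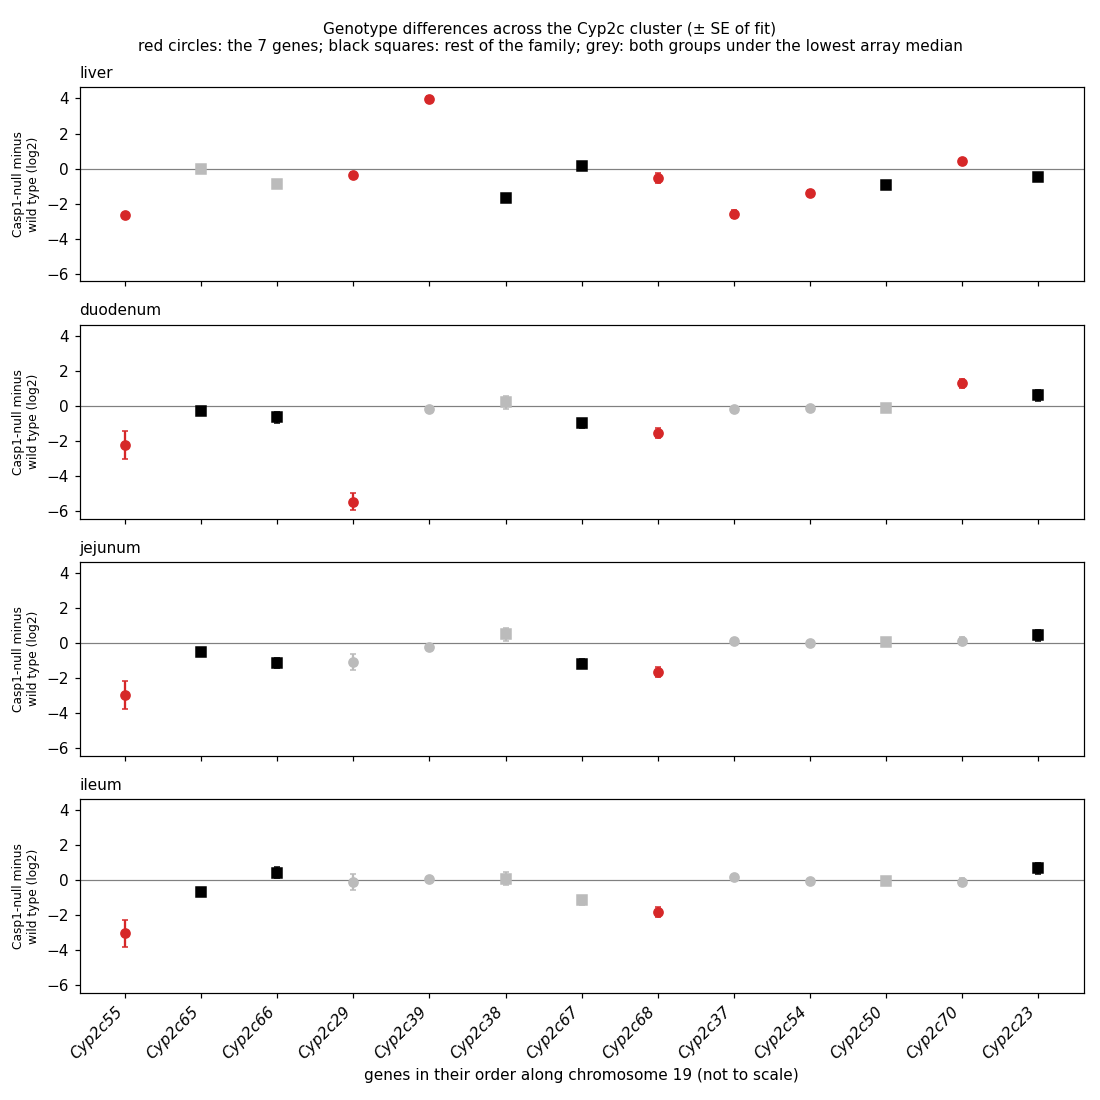
Log2 difference between Casp1-null and wild-type mice for the 13 measured genes of the family, in their order along chromosome 19, in each tissue, with the standard error of the limma fit; red circles are the 7 genes, black squares the other 6, and grey symbols have both groups under the lowest array median. Cyp2c39, placed by its first annotated start, stands at 3.95 in liver between Cyp2c29 and Cyp2c38, which were lower. Cyp2c29, Cyp2c54, Cyp2c55, Cyp2c65 and Cyp2c68 are below 0 in all 4 tissues, and of these Cyp2c55 and Cyp2c68 have no grey symbol.

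Lists of genes around these enzymes were tested for genotype in the same way. The shares of all probe sets called in either direction were 0.726% in liver, 1.03% in duodenum, 1.63% in jejunum and 0.726% in ileum. They stand beside the calls of every list below. The share of all probe sets with an unadjusted p under 0.05 was not counted, so nothing is read from the unadjusted counts. Of 12 measured genes for electron and haem supply (of 14 listed), Cyb5r3, the reductase of cytochrome b5, fell 1.79-fold in liver (log2 difference -0.84 ± 0.112, adjusted p = 0.0324), and Alad, an enzyme of haem synthesis, rose in duodenum, jejunum and ileum (0.54, 0.86 and 1.01; adjusted p = 0.0353, 0.00113 and 0.000251). The list's median differences were -0.21 in liver and -0.02, 0.07 and 0.10 along the intestine. Of 23 transcription factors known to act on these genes or along liver and gut (of 27), 1 rose, the aryl hydrocarbon receptor Ahr in jejunum (0.76 ± 0.158, adjusted p = 0.0235), and none was called in the other tissues, where 4, 4 and 2 had an unadjusted p under 0.05 in liver, duodenum and ileum. The list's medians were -0.22, -0.13, 0.09 and 0.00 in the order liver, duodenum, jejunum, ileum. P450 reductase and CAR were among the listed genes without a probe set of their own, and are not analysed here.

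The next list held other known targets of CAR and PXR. Of 24 measured (of 31), 1 rose in liver and 1 fell in jejunum, with medians of -0.10, -0.18, -0.13 and 0.02 in the same order of tissues; in duodenum and ileum none was called. An unadjusted p under 0.05 was found for 7, 5, 7 and 4 of them in that order. The riser was Sult1e1, the oestrogen sulfotransferase, from 3.27, under the array median, to 5.34 in liver (at least 4.18-fold, adjusted p = 0.00288). The one that fell was Abcc3, a basolateral exporter of conjugates, by 2.60-fold in jejunum (log2 difference -1.38 ± 0.234, adjusted p = 0.00579).

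Of 25 other genes of arachidonate and linoleate oxidation (of 29), 1 was called in each tissue. Cyp4f15, a fatty acid hydroxylase, rose 2.29-fold in duodenum (adjusted p = 0.0087), its relative Cyp4f16 fell 1.68-fold in jejunum (adjusted p = 0.0128), and Ephx2, the hydrolase that opens the epoxides made by Cyp2c enzymes, rose 1.95-fold in ileum (adjusted p = 0.0232). In liver the called gene was Cyp4f18, for which both groups were under the array median (4.89 and 4.23). The medians of this list, 0.01, -0.06, -0.01 and 0.08, lay near those of all probe sets.

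Of 25 genes of retinoic acid metabolism (of 26), none was called in liver, where Cyp2c39 was higher, or in duodenum; 6 and 2 had an unadjusted p under 0.05 there. In jejunum Lrat, which esterifies retinol for storage, rose 4.68-fold (log2 difference 2.23 ± 0.332, adjusted p = 0.00228) and Bco1, which cleaves carotene into retinal, fell 3.25-fold (-1.70 ± 0.264, adjusted p = 0.00314). In ileum Adh1, an alcohol dehydrogenase that oxidises retinol, rose 1.96-fold (adjusted p = 0.0475). The medians were -0.08, -0.04, 0.06 and 0.00. Of the 23 genes of bile acid synthesis and transport, all measured, 1 was called, Cyp7b1, the oxysterol hydroxylase of the alternative pathway, which rose 2.34-fold in liver from 11.18 to 12.41 (log2 difference 1.23 ± 0.120, adjusted p = 0.0111). In duodenum, jejunum and ileum none was called and 5, 4 and 3 had an unadjusted p under 0.05, and the medians of the list were -0.08, -0.01, 0.01 and 0.04. Leaving out any 1 of the 6 liver arrays moved the count of 4 called liver genes over the lists together to between 1 and 11, whereas the 6 called in jejunum became 4 to 8. Leaving out single intestinal arrays moved the 2 called in duodenum to between 0 (without Casp1-null duodenum array 3) and 3, and the 3 called in ileum to between 1 (without Casp1-null ileum array 3, one of those with stroma) and 5.

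The genes whose group means most resembled each pattern were ranked by Pearson r over the 8 group means, among 3767 genes whose means spanned at least 2 log2 units; the means share the same arrays, and r is a description. For Cyp2c29 they were Gm4956 (r = 0.981), Hnf4aos (0.9809), an antisense transcript of the Hnf4a locus, and Unkl (0.9687). For Cyp2c55, whose pattern was least shared, they were Camk2b (0.9014), Rhbdl2 (0.8765) and Frmd3 (0.8353). For Cyp2c68 they were Hagh (0.9814), the detoxifying enzyme glyoxalase II, Cyp2d22 (0.943) and Ero1b (0.9209). For Cyp2c39, high in Casp1-null liver, they were Sult5a1 (0.9988), Vtcn1 (0.9985) and Cd207 (0.9969). The liver genes with lower Casp1-null values had Serpina7 (0.9994), Rgs16 (0.999) and Stbd1 (0.9988) for Cyp2c37 and Myct1 (0.9998), C5ar2 (0.9996) and Akr1d1 (0.9996) for Cyp2c54. Cyp2c70 was most like Srpx2 (0.9988), F5 (0.9982), coagulation factor V, and Cyp2a12 (0.9979); with a large step between liver and gut, an r near 1 is common among liver genes.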

How the data were processed

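Total RNA of liver and scraped intestinal epithelium was hybridised to 24 whole-transcript Affymetrix arrays. The deposited values are log2 expression per probe set; the authors made them by robust multi-array averaging (RMA, per the submitters' processing notes, no version given), and any earlier filter was not given in the sources used here. The arrays' number, not a read depth, limits precision. The median value of an array ranged from 4.87 to 5.00 for intestine and from 5.19 to 5.22 for liver. Of 35556 probe sets, 21218 carried 1 gene symbol, 1881 several and 12457 none in the platform annotation; 21185 gene identifiers were found in RefSeq and 33 were not, and the probe set with the highest mean stood for a gene.

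The members and lists were chosen with earlier results of these data known. Named are the 7 genes, the measured rest of the family, Casp1, the called genes of each list (at most 4 per tissue by p) and the 3 genes most like each member. Tests were two-sided and used the linear models of limma 3.58.1 under R 4.3.3, moderated by eBayes without a trend, Benjamini-Hochberg over all probe sets, called at an adjusted p under 0.05, with no filter on low values. Tissue contrasts averaged over both genotypes used 18 intestinal arrays (12 residual degrees of freedom) or all 24 (16), and genotype contrasts the 6 liver arrays (4) or the 18 intestinal ones (12). Alternatives were another eBayes setting, a filter, 2 further normalisations, array weights, the spread of all arrays, blocks, single genotypes, each array left out in turn and, added after seeing the data, the 3 arrays with other tissue left out together. The fits were tested on simulated data.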

Additional observations from a re-analysis of the deposited data

Results flagged for a closer look

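For 3 genes every Casp1-null array lay on one side of the wild type in liver and on the other side in an intestinal segment. These differences between tissues were not tested. Cyp2c39 had a log2 difference (Casp1-null minus wild type) of 3.95 in liver and -0.26 in jejunum, but both jejunal groups were under the array median, so the jejunal value has no size. Cyp2c38 had -1.68 in liver and 0.48 in jejunum, again with both jejunal groups under the array median. Cyp2c23 had -0.47 in liver and 0.67 in ileum, with all 4 groups above the array median; neither of its differences passed the limma test (adjusted p = 0.216 and 0.756).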

How the results depend on the processing

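Of 28 tissue tests on the 7 genes, 20 kept their call and side under every alternative run, and of 830 alternative values 17 lost and 7 gained a call; none reversed. All 642 alternative values of the genotype differences stayed within 1 SD of the reported ones, taking the SD between arrays of the more variable genotype group. For single arrays left out this was fixed in advance, since removing 1 of 3 arrays cannot move a group mean by 1 SD. Several other settings change only the spread and leave the difference as it was, so nothing is read from this count. The alternative values ranged from 3.80 to 4.13 for Cyp2c39 in liver, from -2.83 to -2.39 for Cyp2c37 in liver and from -6.24 to -4.79 for Cyp2c29 in duodenum. The filter kept probe sets whose mean over the arrays of a fit lay above the median of these means over all probe sets. That is not the array median used above as the background limit. It left 2 of the 7 genes in the intestinal fits and 5 in the liver-intestine fit, so counts drop by construction.

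Genes called among the 7 were, for duodenum against jejunum (3), 1 with the filter, 1 in wild-type arrays and 1 in Casp1-null arrays (2 to 3 leaving out single arrays); for duodenum against ileum (4), 1 with the filter and 2 in either genotype alone (3 to 5); and for ileum against jejunum (1), 2 with array weights, with the spread of 24 arrays and without the 3 arrays with other tissue (1 to 2). Among the other 6 family genes the counts became, in liver (1), 2 with the filter, 2 with the spread of 24 arrays and 0 with the replicate block (0 to 1 leaving out single arrays); in duodenum (0), 1 with array weights and 1 with the spread of 24 arrays (0 to 1); in jejunum (1), 0 with median centring and 2 with the filter, weights, the spread of 24 arrays or without the 3 arrays (0 to 2); and in ileum (0), 1 with the filter, weights or the spread of 24 arrays and 2 without the 3 arrays (0 to 1). Over the 6 lists together they became 13 (spread of 24 arrays) in liver (4; 1 to 11 leaving out single arrays), 5 in duodenum (2; 0 to 3), and 1 in ileum without the 3 arrays (3; 1 to 5); jejunum (6) gave 4 to 8. Over all probe sets, liver genotype calls went from 258 to 903 with the spread of 24 arrays and 71 to 486 leaving out single arrays, duodenum calls from 366 to 571 with weights and 570 with that spread, ileum calls from 258 to 161 without the 3 arrays, and liver-intestine calls from 25951 to 14254 with the filter. Contrasts in a single genotype, with fewer arrays, called 2119 and 1413 (duodenum against jejunum, 4013 in all), 4191 and 3447 (ileum against jejunum, 7174) and 5881 in Casp1-null mice (duodenum against ileum, 11298). Apart from the filter and the smaller sets of arrays, the cause of these shifts was not tested.

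Segments of a genotype may share 3 mice, but the labels do not tie same-numbered arrays to 1 mouse and the numbers were not taken as pairs: deviations from group means correlated above 0.1 in 5 of 18 same-numbered pairs of segments, 1 of 12 pairs of genotypes and 1 of 18 pairs of liver and segment. With a replicate block the members' tissue counts were 3, 1, 4 and 7, as without it, the liver family count was 0 in place of 1 (Cyp2c38, adjusted p = 0.0724), the 1 family gene called in jejunum became Cyp2c66 (adjusted p = 0.0277) in place of Cyp2c67 (0.0636), the list counts were 2 in liver and 1 in duodenum, and all liver calls were 92. A random block by replicate number had a consensus correlation of 0.046 in the intestinal fits and 0.05 with liver and changed none of these genes' calls. Signal near background limits Cyp2c37, Cyp2c39 and Cyp2c54 in the intestine, and 3 arrays a group limit every value.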
